A study of Mus musculus with 6 samples.

Results

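The fibroblast growth factor (FGF) genes described here were a fixed list of 35 mouse genes: 17 secreted ligands, 4 intracellular FGF-like proteins, 5 receptors, and 9 genes that FGF signalling induces and that in most cases restrain it. They were taken by symbol from a count table of 55401 genes. The rule uses no measured value, but the list was drawn up with earlier results of these data known. Of the 35, 34 had a row in the table, 33 had at least 1 read in some library and 27 passed the filter on low counts. *Spry3* was the member without a row. RNA was sequenced from whole embryos at E10.5 (embryonic day) of 2 genotypes, with 3 libraries each: wild-type (WT) littermates, and 5C embryos carrying an array of 5 *Mir483* copies in tandem, inserted by gene targeting at the *Igf2* locus, where *Mir483* naturally resides. Per the study's methods all mice were on a C57BL/6J background and each library held a pool of 2 male embryos, so a value is an average over 2 animals. The comparison asks whether RNA of FGF pathway genes differed between embryos with extra *Mir483* copies and their WT littermates.

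FGF ligands are secreted, bind heparan sulfate on the cell surface and activate receptor tyrosine kinases, which signal largely through the Ras-ERK cascade. ERK activity switches on transcription factors of the ETS family such as *Etv4* and *Etv5*, and also inhibitors of the same cascade, among them the Sprouty and Spred proteins and the ERK phosphatase DUSP6. In a midgestation embryo the ligands are made in small signalling centres, including the apical ectodermal ridge of the limb bud, the boundary between midbrain and hindbrain, the tail bud and the pharyngeal pouches, whereas receptors and feedback genes are expressed broadly.

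The *Mir483* hairpin is the precursor of 2 mature miRNAs, which are shown because base pairing of the seed (bases 2 to 8, in capitals) with a 3′UTR is the usual first criterion for a miRNA target. Both are from RefSeq (GRCm38.p6), where miR-483-3p lies at chr7:142654932-142654952 and miR-483-5p at chr7:142654968-142654989, on the minus strand.
miR-483-3p: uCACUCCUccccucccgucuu
miR-483-5p: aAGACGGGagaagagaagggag

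The complement of the 3p seed (AGGAGTG, searched on the transcript's strand only) occurred once in the 3′UTR of the longest coding transcript of 4 of the 34 FGF genes (11.8%), against 12.4% of the 13900 genes tested that have a 3′UTR annotation. The 5p seed complement (CCCGTCT) occurred in none of the 34, against 3.44% of those genes. Restricted to the 27 tested members, the 3p match occurred in 3. The 3′UTRs of the tested members had a median of 1508 bases, against 1199 bases over the 13900 genes. Of the 4 genes, *Spry1*, *Spred1* and *Etv5* were tested, and their matches are printed in capitals with 8 bases on either side, in the orientation of the mRNA and on GRCm38. The match lay at chr3:37643663-37643669 (plus strand, from base 112 of a 3′UTR of 1047 bases) in *Spry1*, at chr2:117180829-117180835 (plus strand, from base 2880 of 4330) in *Spred1*, and at chr16:22383286-22383292 (minus strand, from base 178 of 2161) in *Etv5*.
*Spry1*: gcctcaatAGGAGTGgactgtga
*Spred1*: aagcgctaAGGAGTGtaagtaag
*Etv5*: ggctcgggAGGAGTGggaacagg
The fourth gene, *Fgf1*, carried its match from base 2719 of a 3′UTR of 3254 bases. A seed match is a property of the sequence and does not show that a miRNA acts on it.

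The libraries held between 6357343 (WT replicate 3) and 19151368 (WT replicate 1) counted reads. Thus 3 reads, taken here as the floor of detection, corresponded to 0.157 to 0.472 counts per 1000000 counted reads. Levels below are counts per 1000000 (CPM) of scaled library totals, on which 3 reads in WT replicate 3 were 0.479 CPM. The *Mir483* gene itself was at 0.442 ± 0.129 CPM in WT libraries and 4.02 ± 1.33 CPM in 5C libraries (SD, n = 3), with every 5C library above every WT library. The WT values rest on 11, 5 and 2 reads. Reads of mRNA libraries over the hairpin do not measure the level of the mature miRNAs. Markers of the ligand-producing domains had summed levels over the 6 libraries of 44.6 to 47.9 CPM for 5 genes of the limb's apical ridge, 37.8 to 51.7 CPM for 7 genes of the midbrain-hindbrain boundary and 10.48 to 18.5 CPM for 8 genes of the tail bud, of which *Msgn1* had 0 reads in WT replicate 2 and *Mesp2* 0 reads in WT replicates 2 and 3. WT replicate 1 stood apart: the sum of 9 markers of yolk sac endoderm was 6533 CPM there, 205 and 470 CPM in the other WT libraries, and 142, 142 and 1260 CPM in the 5C libraries, with none of the 9 at 0 in any library. The sum of 7 decidual and uterine killer cell markers also varied, from 10.49 to 49.3 CPM in WT libraries and from 12.6 to 55.7 CPM in 5C libraries. *Ddx3y*, on the Y chromosome, was at 41.6 to 55.9 CPM in replicates 1 and 3 of both genotypes, but at 0.944 CPM in WT replicate 2 and 0 CPM in 5C replicate 2, which goes against the stated male pools.

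Across the FGF genes the 2 genotypes were close. No member met the criteria for a differentially expressed gene (DEG, Benjamini-Hochberg adjusted p under 0.05 and fold change over 1.5), and neither did any of the 16784 genes tested (0%). Even *Mir483*, with a log2 fold change of 3.05 (unadjusted p = 1.01e-05 in edgeR's quasi-likelihood test), had an adjusted p of 0.169. The absence of DEGs thus does not show the absence of differences. The study, with the same cut-offs, did report DEGs between E10.5 embryos of these genotypes. Of the 27 tested members, 14 had a higher and 13 a lower estimate in 5C embryos, with log2 fold changes from -0.51 (*Fgf6*) to 0.61 (*Fgf3*) and a median of 0.03, beside -0.00 over all genes tested. Adjusted p in edgeR's quasi-likelihood test ran from 0.781 to 0.9998. At an unadjusted p under 0.05 there was 1 member, *Dusp6*, higher in 5C, where 6.02% of all genes passed in either direction and 2.55% passed and were higher. A count of 1 in 27 is below the first of these shares. The 95% interval lay wholly within a 1.5-fold change in either direction for 13 of the 27 members, against 67.6% of all genes, the wider intervals belonging mostly to the sparse ligands. In whole embryos fewer cells of a type and less RNA per cell cannot be told apart, and a difference restricted to a small signalling centre would be diluted by the rest of the embryo. The p-values measure the spread between these 3 pools per genotype.

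**Figure D1:**
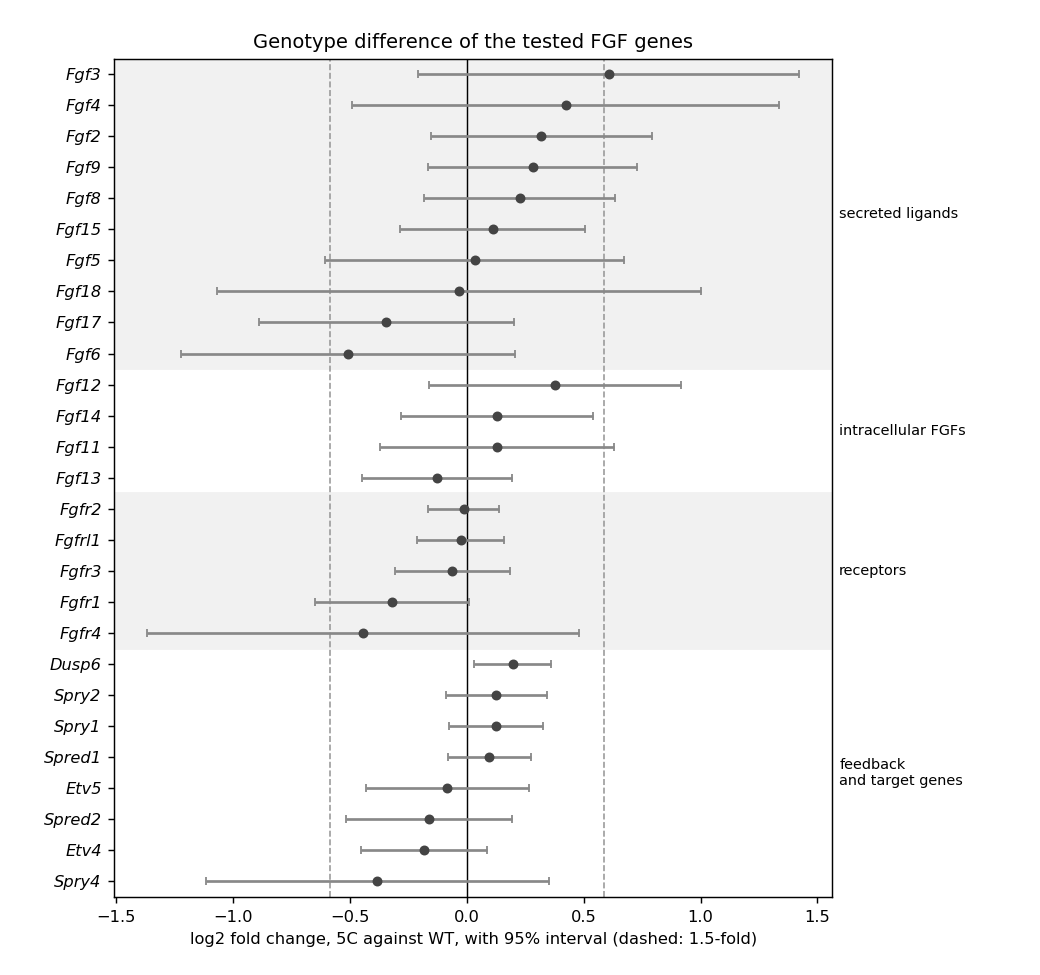
Log2 fold change of 5C against WT for the 27 tested FGF genes, grouped by role, with 95% intervals as horizontal bars and 1.5-fold changes as dashed lines. The interval of *Dusp6* alone excludes 0 (0.03 to 0.36), and the sparse ligands and *Fgfr4* have the widest intervals.

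Levels between genes are compared as CPM per kilobase (kb) of annotated exon, averaged over the 6 libraries. The highest places were held by feedback genes and receptors, although *Spred2* (2.45 CPM per kb), *Spry4* (1.29 CPM per kb) and the receptor *Fgfr4* (0.462 CPM per kb) lay below the leading ligands. *Dusp6* was highest at 48.4 CPM per kb, followed by *Spred1* at 26.9 and *Fgfr2* at 18.4, and each of these was above the next gene in all 6 libraries. *Fgfrl1* came next and was above *Spry2* (14.6 CPM per kb) in 4 of 6 libraries, so this pair was not separated, and likewise *Etv4* (6.77 CPM per kb) was above *Fgfr1* (6.72 CPM per kb) in 4. The leading ligands *Fgf8* (4.08 CPM per kb) and *Fgf15* (4.01 CPM per kb) and the gene after them, *Etv5* (3.98 CPM per kb), were not separated, each being above the next in 4 and 3 libraries, respectively. *Fgf17* at 2.81 CPM per kb was the third ligand, and *Fgf13* at 2.02 CPM per kb led the intracellular group. *Fgf9*, *Fgf18*, *Fgf5*, *Fgf2*, *Fgf3*, *Fgf4* and *Fgf6* followed at 1.02 to 0.239 CPM per kb. The ligands that were not tested lay below these, at 0.232 CPM per kb for *Fgf1* and less for the other 6.

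**Figure D2:**
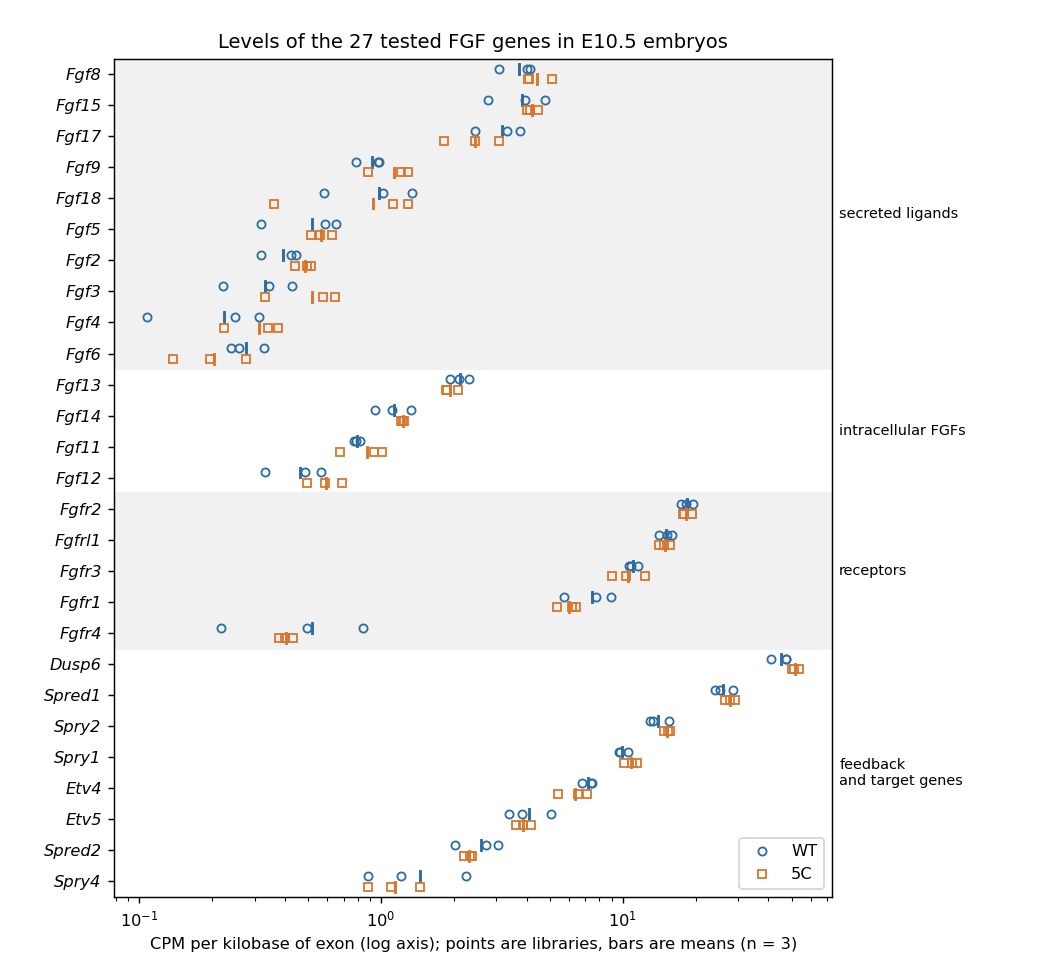
CPM per kilobase of exon, on a log axis, of the 27 tested FGF genes in each library (circles WT, squares 5C, n = 3 per genotype) with the mean of each genotype as a vertical bar. Feedback genes and receptors reach averages of 48.4 (*Dusp6*) and 18.4 (*Fgfr2*), whereas no ligand averages above 4.08 (*Fgf8*), and the symbols of the genotypes overlap for every gene but *Dusp6*.

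Among the ligands of the FGF8 subfamily, *Fgf8* is the signal of the apical ridge, the midbrain-hindbrain boundary and the tail bud. It was measured at 5.56, 5.41 and 4.15 CPM in WT replicates 1 to 3 and 6.91, 5.55 and 5.48 CPM in 5C replicates 1 to 3. The ranges overlapped, with 5C replicate 1 highest and WT replicate 3, the shallowest library, lowest. The log2 fold change was 0.23 (SE 0.18, 95% interval -0.18 to 0.63, unadjusted p = 0.242). *Fgf17*, which acts with *Fgf8* in the midbrain-hindbrain region, was at 4.15, 6.35 and 5.58 CPM in WT libraries and 5.21, 3.07 and 4.13 CPM in 5C libraries. Its estimate was opposite in sign, at -0.34 (SE 0.24, 95% interval -0.89 to 0.20, unadjusted p = 0.189), and WT replicate 1 was at the level of 5C replicate 3. *Fgf18*, the third member, ranged from 0.687 to 1.59 CPM in WT libraries and 0.427 to 1.54 CPM in 5C libraries, and its estimate of -0.03 (95% interval -1.07 to 1.003) changed sign in 3 of the 6 fits that left out 1 library.

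*Fgf15*, the mouse counterpart of FGF19, is expressed in the embryonic brain and pharyngeal region and acts as a hormone in the adult. It was at 12.1, 14.6 and 8.46 CPM in WT libraries and 12.6, 12.3 and 13.6 CPM in 5C libraries, the highest CPM of any secreted ligand. Both the highest and the lowest value were in WT libraries, and the log2 fold change was 0.11 (SE 0.18, 95% interval -0.29 to 0.51, unadjusted p = 0.546), or -0.06 without WT replicate 3. On the opposite strand 25.7% of its exon bases are shared with *Gm26793* and *Gm39119*, and the kit was stranded but the strand setting of the counting is not given in the sources used here. The other endocrine FGFs, *Fgf21* and *Fgf23*, had 0 reads in every library and 1 to 5 reads per library, respectively.

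*Fgf3* and *Fgf4* lie next to *Fgf15* on chromosome 7, in a cluster that starts 2183087 bases from *Mir483* (chr7:142654924-142654996). *Fgf3*, a ligand of the hindbrain and otic region and the tail, had the largest fold estimate of the members. It was at 0.997, 0.515 and 0.798 CPM in WT libraries and 1.33, 0.768 and 1.495 CPM in 5C libraries. 5C replicates 1 and 3 were above all WT libraries and 5C replicate 2 lay below 2 of them, at levels of a few reads. The log2 fold change was 0.61 (SE 0.36, 95% interval -0.21 to 1.42, unadjusted p = 0.126). *Fgf4*, a ligand of the apical ridge, was at 0.997, 0.343 and 0.798 CPM in WT libraries and 1.09, 1.20 and 0.712 CPM in 5C libraries, with an estimate of 0.42 (95% interval -0.49 to 1.34). The neighbouring *Fgf15* had the smallest estimate of the 3 genes of the cluster.

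Of the remaining ligands, *Fgf6*, known mainly from developing muscle, was at 1.52, 1.20 and 1.12 CPM in WT libraries and 0.909, 1.28 and 0.641 CPM in 5C libraries. It had the lowest estimate of the members, -0.51 (SE 0.32, 95% interval -1.22 to 0.21, unadjusted p = 0.143), with 5C replicate 2 inside the WT range. *Fgf2*, a broadly acting ligand without a classical signal peptide, was at 2.15, 3.00 and 2.87 CPM in WT libraries and 3.33, 2.99 and 3.49 CPM in 5C libraries. The lowest 5C library was just below the highest WT library, and the log2 fold change was 0.32 (SE 0.21, 95% interval -0.15 to 0.79, unadjusted p = 0.162). Of the exon bases of *Fgf2*, 3.76% are shared with *Gm43439* on the same strand and 9.44% with *Nudt6* on the opposite strand. *Fgf9*, a ligand from epithelia that acts on mesenchyme, ranged from 3.67 to 4.55 CPM in WT libraries and 4.12 to 5.98 CPM in 5C libraries, with an estimate of 0.28 (95% interval -0.17 to 0.73). *Fgf5*, with an estimate of 0.03 (95% interval -0.61 to 0.67), was at 0.798 to 1.63 CPM in WT libraries and 1.28 to 1.57 CPM in 5C libraries. In all, 7 of the 10 tested secreted ligands had a higher and 3 a lower estimate (median log2 fold change 0.17), none at an unadjusted p under 0.05, and 1 interval, that of *Fgf15*, lay within a 1.5-fold change. The summed level of the 17 ligands was 40.0, 39.7 and 31.1 CPM in WT libraries and 39.7, 37.1 and 40.3 CPM in 5C libraries, so the genotypes overlapped.

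For 7 secreted ligands there were too few reads for a test. *Fgf7*, a ligand of mesenchyme, was counted 5, 4 and 4 times in WT and 5, 5 and 7 times in 5C libraries. *Fgf16* (0 to 3 reads), *Fgf22* (0 or 1 read) and *Fgf21* (0 reads) were at or below the floor of 3 reads in every library. *Fgf20*, a ligand of the FGF9 subfamily, was counted 5, 2 and 0 times in WT and 7, 6 and 6 times in 5C libraries. These correspond to 0.145 ± 0.133 and 0.455 ± 0.05003 CPM (SD, n = 3). The 2 genotypes did not overlap, as for 11.4% of all genes tested. However, *Fgf20* was not tested, and its WT value of 0 comes from the shallowest library, where 3 reads were 0.479 CPM.

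*Fgf1*, an acidic FGF that binds all the signalling receptors, was counted 84, 8 and 3 times in WT and 7, 3 and 19 times in 5C libraries, or 4.41, 0.687 and 0.479 CPM against 0.424, 0.256 and 1.35 CPM. WT replicate 1 and, next, 5C replicate 3 were the highest, as for the yolk sac endoderm markers. *Fgf1* did not pass the filter on low counts in the 6 libraries. With no filter its log2 fold change was -1.62 (adjusted p = 6.3e-04 in the same edgeR test), which made it the only member to be a DEG under any setting tried. Without WT replicate 1 as well, it was 0.19 (unadjusted p = 0.733), so the call rested on that library. *Klb*, a co-receptor through which some of the endocrine FGFs bind their receptors, also had WT replicate 1 highest and 5C replicate 3 next, at 15.1, 0.944 and 1.75 CPM in WT libraries and 0.788, 0.854 and 3.35 CPM in 5C libraries. Its log2 fold change was -1.95 (SE 0.91, 95% interval -3.99 to 0.10, unadjusted p = 0.0599). The part of the yolk sac endoderm signal in these 2 values was not tested.

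**Figure D3:**
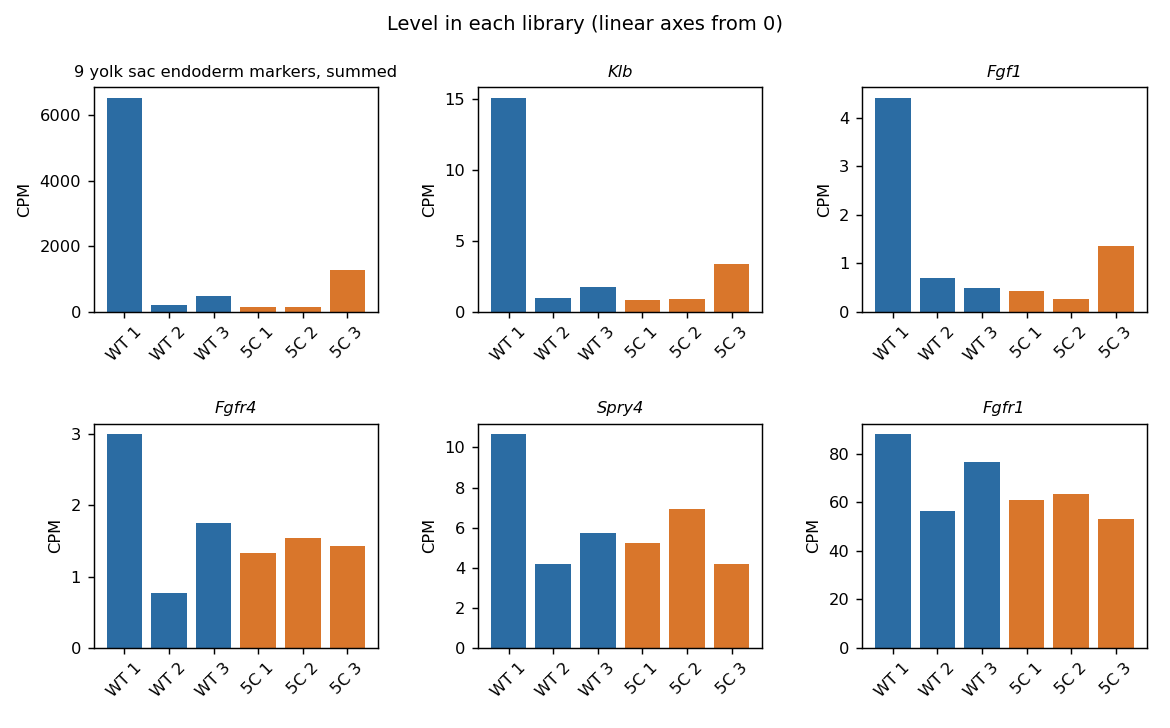
CPM in each library, as bars from 0, of the summed yolk sac endoderm markers, *Klb* and 4 FGF genes (blue WT, orange 5C). WT replicate 1 is the highest library in all 6 panels; 5C replicate 3 is second for the marker sum (1260 CPM), *Klb* and *Fgf1*, but not for *Fgfr4*, *Spry4* and *Fgfr1*.

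The intracellular FGFs *Fgf11* to *Fgf14* are not secreted and are known as partners of voltage-gated sodium channels in neurons. *Fgf12* was at 2.99, 2.06 and 3.51 CPM in WT libraries and 3.64, 4.27 and 3.06 CPM in 5C libraries, with a log2 fold change of 0.38 (SE 0.24, 95% interval -0.16 to 0.91, unadjusted p = 0.1499). The estimate was 0.19 without WT replicate 2, the lowest library, and 0.25 without 5C replicate 2, the highest. *Fgf13*, on the X chromosome, was at 7.76 to 9.27 CPM in WT libraries and 7.43 to 8.33 CPM in 5C libraries (log2 fold change -0.13, 95% interval -0.45 to 0.19). *Fgf14* and *Fgf11* each had an estimate of 0.13, with intervals of -0.28 to 0.54 and -0.37 to 0.63. The 4 genes had 3 higher and 1 lower estimate, and none passed an unadjusted p under 0.05.

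All 5 receptor genes had estimates below 0 (median log2 fold change -0.06), although that of *Fgfr2* was above 0 with scaling by library size alone or with no filter on low counts and those of *Fgfr2* and *Fgfrl1* with a correction for GC content. No receptor passed an unadjusted p under 0.05. *Fgfr1*, the receptor of mesoderm and mesenchyme, was at 87.9, 56.2 and 76.7 CPM in WT libraries and 61.0, 63.4 and 52.9 CPM in 5C libraries. WT replicates 1 and 3 were above all 5C libraries, but WT replicate 2 lay below 5C replicates 1 and 2. The log2 fold change was -0.32 (SE 0.15, 95% interval -0.65 to 0.01, unadjusted p = 0.0561, adjusted p = 0.781). It ranged from -0.16 without WT replicate 1 to -0.48 without WT replicate 2, the latter with an unadjusted p of 0.00121. A decrease of 1.5-fold thus remained within the interval of *Fgfr1*, and so did no difference.

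*Fgfr2*, whose isoforms serve epithelium and mesenchyme, was the most abundant receptor at 189, 202 and 181 CPM in WT libraries and 185, 183 and 199 CPM in 5C libraries. The 6 values were interleaved, and the log2 fold change of -0.01 (SE 0.07, 95% interval -0.16 to 0.14, unadjusted p = 0.858) was among the most precise of the members. On the same strand 3.04% of the exon bases of *Fgfr2* are shared with *Ctbp2*. *Fgfr3*, strong in neural progenitors, was at 76.2, 83.0 and 77.5 CPM in WT libraries and 88.5, 73.7 and 64.4 CPM in 5C libraries. The 5C libraries spanned the WT range on both sides, with an estimate of -0.06 (SE 0.11, 95% interval -0.31 to 0.18, unadjusted p = 0.581), and 13.9% of its exon bases are shared with genes on the opposite strand. *Fgfrl1*, a receptor-like protein without a kinase domain, was at 39.2 to 44.5 CPM in WT libraries and 39.3 to 43.8 CPM in 5C libraries (log2 fold change -0.03, 95% interval -0.21 to 0.16). For these 3 receptors a 1.5-fold difference in either direction lay outside the interval. *Fgfr4*, typical of endoderm and early muscle, was sparse at 2.99, 0.773 and 1.76 CPM in WT libraries and 1.33, 1.54 and 1.42 CPM in 5C libraries. Its WT libraries were the highest and the lowest of the 6, and the estimate of -0.44 (95% interval -1.37 to 0.48) turned to 0.30 without WT replicate 1.

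Taken per kb of exon, *Fgfr2* made up 35.1% ± 2.03 of the summed receptor level in WT and 36.6% ± 3.07 in 5C libraries, and *Fgfrl1* 28.7% ± 0.785 and 29.7% ± 0.321 (SD, n = 3). *Fgfr3* held 21.01% ± 1.40 and 20.98% ± 2.42, *Fgfr1* 14.2% ± 2.87 and 11.9% ± 0.921, and *Fgfr4* 0.979% ± 0.563 and 0.808% ± 0.0822. The order of the 5 was the same in both genotypes. The shares overlapped between genotypes except for *Fgfrl1*, whose highest WT share and lowest 5C share both rounded to 29.3%, and shares were not tested. The summed receptor level was 401, 384 and 376 CPM in WT libraries and 380, 363 and 357 CPM in 5C libraries, with 5C replicate 1 inside the WT range.

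The feedback and target genes are the nearest readout of FGF and other ERK-activating signals in these data. *Dusp6*, the phosphatase that inactivates ERK and a classical FGF-induced gene, was at 148, 129 and 148 CPM in WT libraries and 169, 160 and 157 CPM in 5C libraries. It was the only tested member whose genotypes did not overlap, as 11.4% of all tested genes did not. The means were 141 ± 11.1 and 162 ± 5.88 CPM (SD, n = 3). The log2 fold change was 0.20 (SE 0.07, 95% interval 0.03 to 0.36, unadjusted p = 0.0242, adjusted p = 0.781), a 1.15-fold difference whose upper bound was 1.28-fold. The estimate stayed between 0.13 and 0.23 when any 1 library was left out, and its unadjusted p between 0.0219 and 0.0769, above 0.05 without WT replicate 2, 5C replicate 1 or 5C replicate 2.

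Of the ETS factors, *Etv4* was at 22.9, 21.04 and 23.1 CPM in WT libraries and 22.0, 20.2 and 16.7 CPM in 5C libraries. Its log2 fold change was -0.18 (SE 0.12, 95% interval -0.45 to 0.09, unadjusted p = 0.158), opposite in sign to that of *Dusp6*, with 5C replicate 3 the lowest. *Etv5* was at 20.7, 13.8 and 15.6 CPM in WT libraries and 17.1, 15.9 and 14.8 CPM in 5C libraries. WT libraries were again at both ends, and the estimate was -0.08 (SE 0.16, 95% interval -0.43 to 0.27, unadjusted p = 0.603), or 0.12 without WT replicate 1.

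The Sprouty proteins block receptor tyrosine kinase signalling upstream of ERK. *Spry2* was at 27.8, 32.5 and 27.1 CPM in WT libraries and 32.6, 30.8 and 32.2 CPM in 5C libraries, where WT replicate 2 reached the level of the 5C libraries. The log2 fold change was 0.13 (SE 0.10, 95% interval -0.09 to 0.34, unadjusted p = 0.217). *Spry1* was at 28.1, 30.5 and 28.2 CPM in WT libraries and 33.4, 29.5 and 31.7 CPM in 5C libraries (log2 fold change 0.12, 95% interval -0.08 to 0.32), and shares 24.4% of its exon bases with *Gm42922* on the opposite strand. *Spry4* was at 10.7, 4.21 and 5.74 CPM in WT libraries and 5.21, 6.92 and 4.20 CPM in 5C libraries. Its estimate of -0.38 (SE 0.33, 95% interval -1.11 to 0.35, unadjusted p = 0.270) came from WT replicate 1 and was 0.15 without that library. The Spred proteins hold back Ras activation of RAF. *Spred1* was at 163 to 195 CPM in WT libraries and 179 to 197 CPM in 5C libraries (log2 fold change 0.10, 95% interval -0.08 to 0.27). *Spred2* was at 9.36 to 14.0 CPM and 10.2 to 11.03 CPM, with a wider interval (-0.16, 95% interval -0.52 to 0.19).

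In all, 4 of the 8 tested feedback and target genes had a higher and 4 a lower estimate, with a median log2 fold change of 0.01, and for 7 of the 8 the interval lay within a 1.5-fold change, the exception being *Spry4*. Their summed level was 434, 412 and 456 CPM in WT libraries and 469, 463 and 464 CPM in 5C libraries. The 5C libraries were higher and closer together (434 ± 22.5 and 465 ± 3.38 CPM, SD, n = 3), in a sum to which *Dusp6* and *Spred1* contributed most. The 3 tested genes with a seed match for miR-483-3p, *Spry1*, *Spred1* and *Etv5*, had estimates of 0.12, 0.10 and -0.08, and so a median of 0.10, beside 0.01 for the 24 tested members without a match. The corresponding medians over all genes were -0.02 with and -0.00 without a match. None of the 3 was lower in 5C embryos at an unadjusted p under 0.05.

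**Figure D4:**
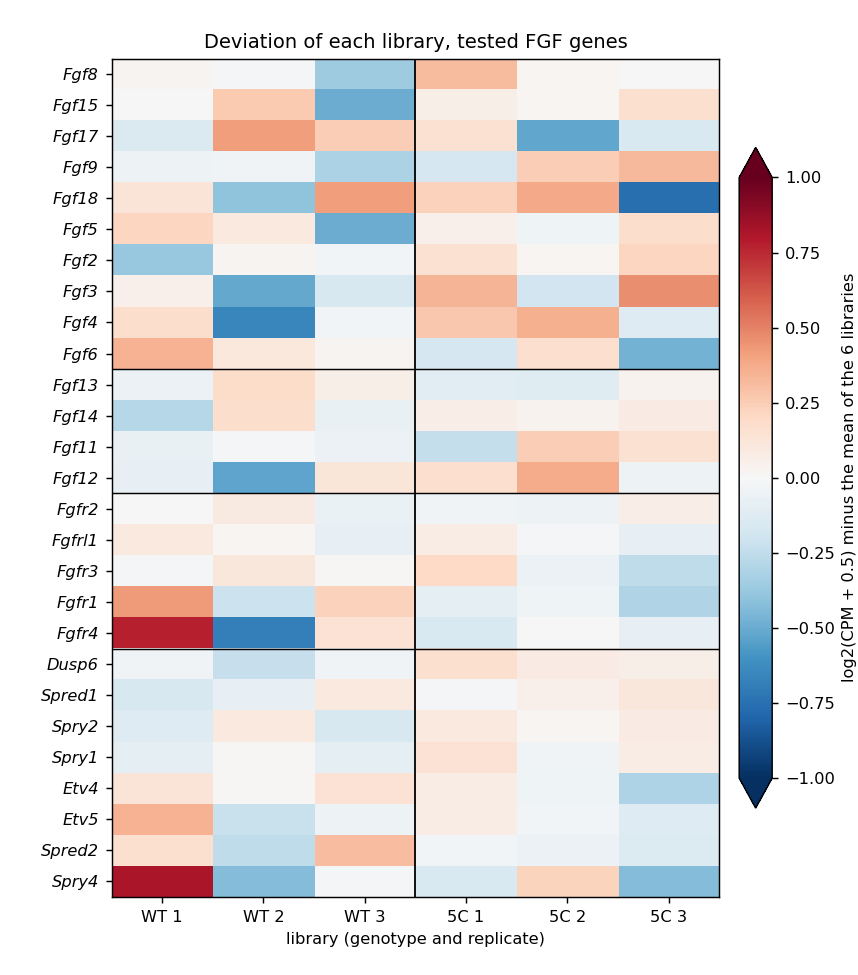
Deviation of log2(CPM + 0.5) in each library from the mean of the 6 libraries (red higher, blue lower), for the 27 tested FGF genes grouped as secreted ligands, intracellular FGFs, receptors, and feedback and target genes. The strongest colours are single libraries, such as WT replicate 1 for *Fgfr4* and *Spry4* and 5C replicate 3 for *Fgf18*; *Dusp6* is the row that separates the genotypes.

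The values of many members differed between libraries of 1 genotype. WT replicate 1 was the highest library for 7 of the 27 tested members, against 18.1% of all genes, and 5C replicate 1 for 5 against 13.1%. Without 1 library at a time, 10 members changed sign in at least 1 fit, all with unadjusted p above 0.05 where they did, and 17 kept theirs under those fits and every other setting tried. These 17 comprised *Fgf2*, *Fgf3*, *Fgf4*, *Fgf6*, *Fgf8*, *Fgf9*, *Fgf11*, *Fgf12*, *Fgf13*, *Fgf17*, *Fgfr1*, *Spry1*, *Spry2*, *Spred1*, *Spred2*, *Etv4* and *Dusp6*.

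**Figure D5:**
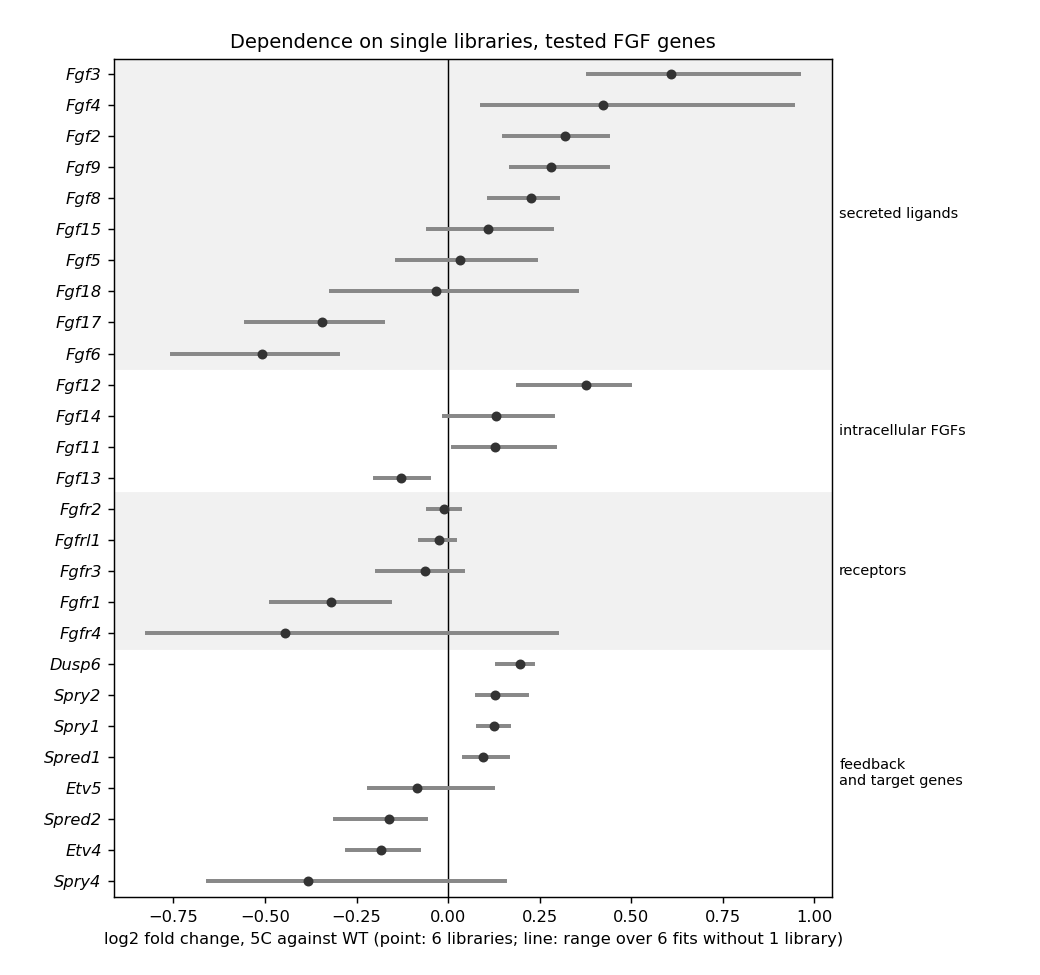
Log2 fold change of 5C against WT with all 6 libraries (points) and its range over the 6 fits that each leave out 1 library (lines), for the 27 tested FGF genes. Lines that cross 0 belong to members whose sign depends on 1 library, such as *Fgfr4* (-0.82 to 0.30), whereas *Dusp6* stays between 0.13 and 0.23.

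Other genes of the pathway were read from 3 lists that hold none of the members. Of 22 genes for adaptors and the Ras-ERK cascade, all tested, 3 had an unadjusted p under 0.05 where 6.02% of all genes did, and the median log2 fold change was -0.05. Lower in 5C at that level were *Crkl*, an adaptor of receptor signalling (-0.31, SE 0.08, unadjusted p = 0.00453), and *Gab1*, a docking protein for receptor kinases (-0.41, SE 0.16, unadjusted p = 0.0318). *Crkl* was at 99.0, 81.7 and 88.9 CPM in WT libraries and 70.2, 75.5 and 72.6 CPM in 5C libraries, with no overlap, as for 11.4% of all genes tested. *Gab1* was at 47.2, 29.5 and 33.0 CPM in WT libraries and 27.1, 30.1 and 26.4 CPM in 5C libraries. Its genotypes overlapped, with WT replicate 1 well above the rest. Neither passed adjustment (adjusted p = 0.781 for both).

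Of 28 genes for co-receptors, FGF-binding proteins and the synthesis of heparan sulfate, 26 were tested and 2 had an unadjusted p under 0.05, both higher in 5C. They were *Sdc2*, a heparan sulfate proteoglycan (log2 fold change 0.22, SE 0.08, unadjusted p = 0.0259), and *Flrt3*, a membrane protein that binds FGF receptors (0.14, SE 0.06, unadjusted p = 0.0441). The median of this list was -0.06. Of 11 further ERK-responsive genes and inhibitors, 10 were tested and 1 had an unadjusted p under 0.05. This was *Dusp9*, another phosphatase of ERK, at 154, 129 and 114 CPM in WT libraries and 111, 89.8 and 99.4 CPM in 5C libraries. Its log2 fold change of -0.40 (SE 0.12, unadjusted p = 0.00623, adjusted p = 0.781) was opposite in sign to that of *Dusp6*. *Spred3* (0.15, SE 0.15) and *Dusp4* (-0.14, SE 0.15) came next in this list, with unadjusted p of 0.354 and 0.358. Over the 3 lists 6 of 58 tested genes had an unadjusted p under 0.05, 3 in each direction, where 6.02% of all genes did, and 0 were DEGs. The genotypes did not overlap for 7 of the 58, beside 11.4% of all genes tested.

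Markers of the embryo's FGF-producing domains were compared in the same way. None of the 5 apical ridge markers, 7 midbrain-hindbrain markers or 5 tested tail bud markers had an unadjusted p under 0.05, and the medians of their log2 fold changes were -0.07, -0.09 and -0.14. *Fgf8*, which these domains share, thus had a positive estimate beside domain markers whose medians were slightly negative. Neither *Fgf8* nor any of these markers had an unadjusted p under 0.05.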

How the data were processed

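RNA was extracted from pooled whole E10.5 embryos and sequenced as stranded mRNA libraries, 3 WT and 3 5C. The authors deposited 1 table of raw counts per gene, with Ensembl identifiers and no normalization. Per the study's methods and the submitters' processing notes, reads were aligned and counted with STAR on GRCm38, and the strand column used is not given in the sources used here. Identifiers were matched to GENCODE M21 (55141 of 55401). Counts were tested here with edgeR 4.0.16 (R 4.3.3): filterByExpr by genotype, TMM scaling, a quasi-likelihood fit on genotype alone and Benjamini-Hochberg adjustment over all 16784 genes tested. The SE was the size of the log2 fold change divided by the square root of F, and 95% intervals used the t distribution. CPM are counts per 1000000 of the TMM-scaled library totals over the genes tested, and CPM per kb divides by the union of annotated exons. The common biological coefficient of variation was 13.6%. Depth limits values near 3 reads, and this floor covers counting error only. The fits were also run on simulated counts with changes larger than those estimated for the tested members, which leaves power for smaller changes unknown. 3′UTRs came from the longest coding transcript in GENCODE M21, miRNA sequences from RefSeq.

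Members were taken by symbol, without a threshold on any value, but members and lists were chosen with earlier results of these data known. Full statistics were given for the 8 members with the smallest unadjusted p and for *Fgf8*, *Fgf15*, *Fgfr1*, *Fgfr2*, *Fgfr3*, *Spry2*, *Spry4*, *Etv4*, *Etv5* and *Dusp6*, and from each pathway list up to 3 genes of smallest unadjusted p were named, except 1 gene that is not reported here. Alternatives were other scalings and filters, DESeq2 1.42.0, limma-voom (limma 3.58.1), other forms of moderation, GC offsets, a replicate block and leaving out each library. The trophoblast (2 of 6 tested, median log2 fold change 0.24) and primitive red cell markers (5 tested, 0.11) had no gene at an unadjusted p under 0.05. All 5 tested decidual markers had higher estimates (median 1.82), 3 of them (*Gzmc*, *Gzmf*, *Gzmg*) at that level, and all 9 yolk sac endoderm markers had lower estimates (median -2.14), 1 of them (*Amn*) at that level.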

Additional observations from a re-analysis of the deposited data

How the results depend on the processing

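No fit made a member a DEG except the one with no filter on low counts, with 1 (*Fgf1*), where 319 of 33139 genes were DEGs. The number of members with an unadjusted p under 0.05 was 3 with no filter (*Fgf1*, *Fgfr1*, *Dusp6*), 2 in DESeq2 (*Fgfr1*, *Dusp6*) and 0 to 5 without 1 library. It was 0 without 5C replicate 1 or 5C replicate 2 (edgeR), 5 without WT replicate 2 (*Fgf1*, *Fgfr1*, *Fgfr4*, *Spry2*, *Spred2*), 2 without WT replicate 3 (*Fgf1*, *Dusp6*), and 4 without a filter and WT replicate 1, a setting chosen after seeing the data (*Fgf3*, *Fgf17*, *Fgf20*, *Dusp6*). Over all genes the number at that level also moved, from 1011 of 16784 in the main fit. It was 1803 of 17394 without WT replicate 2 and 886 of 17329 without WT replicate 3. Without 5C replicate 1 it was 1458 of 16835, without 5C replicate 2 456 of 17396 and without WT replicate 1 779 of 16809. With no filter it was 2170 of 33139, in DESeq2 719 of 16784 and in the added setting 1513 of 31980. The members' median log2 fold change was 0.093 with at least 10 counts in every library, 0.064 in DESeq2, 0.123 in the added setting and -0.055 (without WT replicate 3) to 0.101 (without WT replicate 1) without 1 library. Pathway genes with an unadjusted p under 0.05 numbered 3 (without WT replicate 1 or 5C replicate 2) to 13 (without WT replicate 2). The median of genes with a seed match was 0.020 with no filter, 0.020 with GC offsets, -0.068 (without WT replicate 2) to 0.10 without 1 library, 0.13 in the added setting and -0.025 with a match of 6 bases. These medians are not all over the same genes. *Fgf1* joined *Spry1*, *Spred1* and *Etv5* with no filter, in the added setting, and without WT replicate 2 or 3 or 5C replicate 1 or 2. Its log2 fold change there ran from -2.07 (without WT replicate 2) to -1.30 (without 5C replicate 2), but was 0.19 in the added setting. The match of 6 bases took 10 tested genes. Depth limits the ligands below 1 CPM.

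The deviations of same-numbered libraries of the genotypes from their genotype means had correlations of -0.171, 0.201 and -0.199. With means of only 3 libraries, such correlations cannot decide whether the numbers pair the libraries. With a replicate block the members' median was 0.066 and 5 pathway genes, against 6 without it, had an unadjusted p under 0.05, and with the block and GC offsets 3 pathway genes did and the seed-match median was 0.020. The number of members with an unadjusted p under 0.05 was 1 (*Dusp6*) in both blocked fits, and the number of DEGs 0 (edgeR).

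Of 480 member estimates under alternatives, 450 kept their direction and their side of the threshold and 30 changed sign. *Fgf18* was 0.023 with GC offsets, 0.043 with the block and GC offsets and 0.082 in the added setting. *Fgfr2* was 0.0036 by library size, 0.00099 with no filter, 0.0062 with GC offsets, 0.0065 with the block and GC offsets and 0.0019 in the added setting. *Fgfrl1* was 0.032 with GC offsets, 0.035 with the block and GC offsets and 0.039 in the added setting, in which *Fgfr4* was 0.31, *Spry4* 0.17 and *Etv5* 0.14. Without 1 library the ranges were -0.14 to 0.24 for *Fgf5* (0.26 in the added setting), -0.32 to 0.35 for *Fgf18*, -0.056 to 0.28 for *Fgf15*, -0.012 to 0.29 for *Fgf14*, -0.055 to 0.031 for *Fgfr2*, -0.19 to 0.041 for *Fgfr3*, -0.82 to 0.30 for *Fgfr4*, -0.076 to 0.020 for *Fgfrl1*, -0.66 to 0.15 for *Spry4* and -0.21 to 0.12 for *Etv5*. With the block alone *Fgf18*, *Fgfr2* and *Fgfrl1* kept their sign. The cause of these changes was not tested.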
